A study of Mus musculus with 6 samples.

Results

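The genes for the EGF receptor family and its ligands were followed in immortalized mouse embryonic fibroblasts (MEFs) that carried or were labelled as having lost Nf2. The 10 members were taken by gene symbol from a table of 26231 genes. They are the receptors Egfr, Erbb2 and Erbb3, the ligands Areg, Ereg, Hbegf, Nrg1, Btc and Tgfa, and the feedback inhibitor Errfi1. All 10 were found, 8 passed the filter on low values, and 2 (Erbb3 and Btc) stayed under it.

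RNA sequencing gave 6 libraries, with 3 of each line. Both lines came from Nf2fl/fl embryos of the FVB strain, aged about 14 days per the labels, in which loxP sites flank part of both Nf2 alleles, and both were immortalized with a lentivirus carrying SV40 large T antigen. The control line, labelled WT, received a lentivirus with green fluorescent protein (GFP) alone, and the other, labelled Nf2 KO, a lentivirus with Cre recombinase and GFP, both under the CMV promoter. All cells were kept in serum-free medium for 24 h before RNA extraction, and the libraries of both lines carry the marks A, B and 2018. Each genotype is represented by 1 transduced line, so the genotype and the line cannot be told apart. Nothing in the labels says that replicates were separate cultures, so p-values measure only the spread between these libraries.

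The ErbB receptors are tyrosine kinases of the cell surface that pair with each other when a ligand binds. Erbb2 has no known ligand of its own and serves as a partner, while Erbb3 has little kinase activity and relies on that partner. The ligands are made as membrane-bound precursors that proteases of the ADAM family cut free, and the activated receptors feed the RAS-MAPK and PI3K pathways, which in turn raise some of the ligand genes and inhibitors such as Errfi1. In fibroblasts Egfr is the main receptor for this family, and Merlin, the product of Nf2, is known as a membrane-linked tumour suppressor that can restrain Egfr at cell contacts.

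The promoters of the members were searched because several members moved together. RefSeq windows of GRCm38.p6, from 250 bases before to 50 bases after a gene's start, were found for 6 of the 10 members, in 7 windows. Ereg, Hbegf, Nrg1 and Erbb3 had no window at hand and were not searched. The letters of 4 motifs were sought on both strands: TGACTCA (AP-1), TGACGTCA (CRE, the cyclic AMP response element), GGAATG (TEAD) and the CArG box of serum response factor. Shown here are the windows of Areg and Errfi1, the pair of members with the largest line differences, with the motif match in capitals. The Areg window (chr5:91139349-91139648, plus strand) holds the CRE letters, which start 61 bases before the gene's start.
Areg: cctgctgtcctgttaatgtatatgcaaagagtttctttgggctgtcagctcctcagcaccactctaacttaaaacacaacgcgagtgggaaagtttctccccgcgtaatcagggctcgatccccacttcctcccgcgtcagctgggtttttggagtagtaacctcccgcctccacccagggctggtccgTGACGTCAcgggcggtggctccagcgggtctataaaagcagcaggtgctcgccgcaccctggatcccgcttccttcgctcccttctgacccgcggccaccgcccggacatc
Errfi1 has a pair of windows. The first (chr4:150853546-150853845, plus strand) holds the TEAD letters on the other strand, so they read as CATTCC, 65 bases before the start, and the second (chr4:150854820-150855119, plus strand) holds the CRE letters 51 bases before it.
Errfi1 window 1: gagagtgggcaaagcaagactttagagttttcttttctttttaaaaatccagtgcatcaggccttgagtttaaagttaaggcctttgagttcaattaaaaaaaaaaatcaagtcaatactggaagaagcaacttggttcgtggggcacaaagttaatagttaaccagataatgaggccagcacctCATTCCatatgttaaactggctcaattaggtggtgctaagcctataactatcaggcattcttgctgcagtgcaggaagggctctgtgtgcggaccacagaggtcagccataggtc
Errfi1 window 2: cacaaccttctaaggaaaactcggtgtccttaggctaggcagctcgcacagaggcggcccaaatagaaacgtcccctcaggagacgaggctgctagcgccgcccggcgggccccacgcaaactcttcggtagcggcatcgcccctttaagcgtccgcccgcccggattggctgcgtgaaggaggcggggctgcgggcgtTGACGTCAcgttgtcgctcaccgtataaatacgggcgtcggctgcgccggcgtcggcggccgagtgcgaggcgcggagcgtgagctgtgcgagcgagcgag
Of all 32851 windows, 1.79% held the CRE letters, 14.7% the TEAD letters, 5.2% the AP-1 letters and 1.63% a CArG box. The only other match among the members with a window was TEAD in Erbb2, 88 bases before its start. The windows of Egfr, Tgfa and Btc held none of the 4 motifs. A match is a stretch of letters and was not tested as a binding site.

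Values are RPKM, reads scaled to exon length and to library size, so levels of different genes can be set side by side. Depth worked out from the steps between low values was 13397331 to 19201445 reads in the libraries of marks A and B, and 60976927 and 72753393 reads in the 2018 libraries of the control and Nf2 KO-labelled lines. Nf2 itself was listed at 14.3, 13.7 and 13.1 RPKM in control A, B and 2018 and at 15.4, 12.9 and 13.9 RPKM in the Nf2 KO-labelled libraries. Its RNA was thus no lower there (difference of 0.03 in log2(RPKM + 1), SE 0.10, adjusted p = 0.987 by limma with Benjamini-Hochberg adjustment). A value over the whole gene does not show whether the part between the loxP sites was lost. The Nf2 KO libraries are therefore named by their label. Fibroblast markers summed to 1130 to 2060 RPKM per library, with Col1a1 at 265.0 to 712.0 RPKM and Vim at 536.0 to 882.0 RPKM, whereas Lum stayed at or under 0.247 RPKM and the epithelial markers Epcam and Cdh1 at or under 0.216 RPKM. The first principal component, with 50.3% of the variance, set the B libraries apart from the other 4, and the second, with 32.7%, set the lines apart.

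The first comparison asks which members differed between the Nf2 KO-labelled and control libraries. Egfr rose in the Nf2 KO-labelled line to 1.71 times its control level and was the only member past the threshold when replicates were treated as unpaired. With the replicate mark as a block, 6 members differed: Egfr and Tgfa were higher, and Areg, Ereg, Hbegf and Errfi1 were lower in the Nf2 KO-labelled libraries. Erbb2 and Nrg1 passed the threshold in neither fit. Differences are given in log2(RPKM + 1), which understates changes of genes near 1 RPKM, and were tested with limma over 11067 genes. The Benjamini-Hochberg adjusted p had to be under 0.05.

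Among all genes tested, 1.06% passed without the block (0.479% higher and 0.578% lower) and 7.53% with it (2.99% higher and 4.54% lower). Against these, 1 of 8 members passed without the block and 6 of 8 with it, 2 of them higher and 4 lower. The block is used because libraries of the same mark deviated together from their line means. The libraries of the lines did not overlap for 3 of the 8 (Egfr, Areg and Tgfa), against 15.1% of all genes tested. Areg and Tgfa passed the filter only through the line in which they were high.

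**Figure D1:**
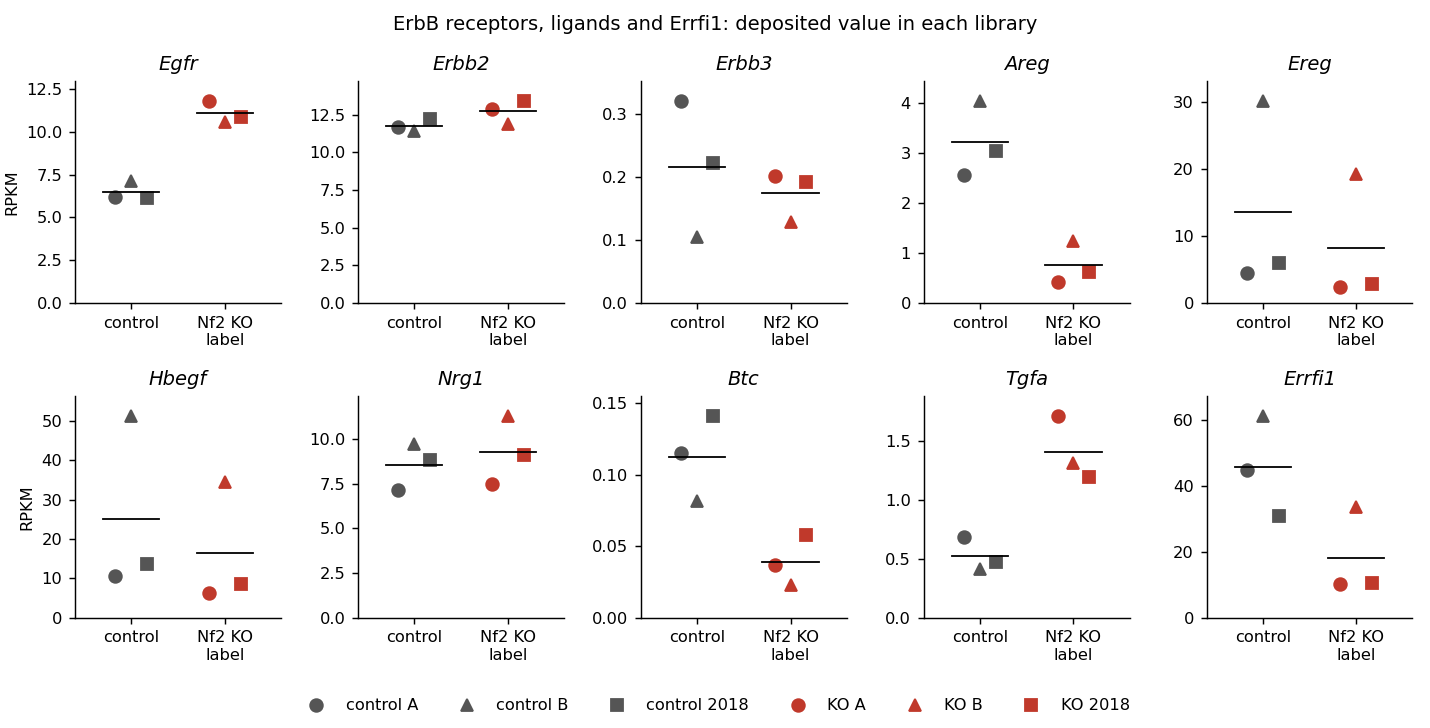
Deposited values (RPKM, linear axis from 0, a scale of its own for each gene) of the 10 members in control libraries (grey) and Nf2 KO-labelled libraries (red), with circles for mark A, triangles for B, squares for 2018 and a bar at each line's mean. Egfr, Areg, Tgfa and Btc separate the lines, while the triangles stand above the other symbols of their line for Areg, Ereg, Hbegf, Nrg1 and Errfi1.

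Egfr (chr11:16752203-16918158, plus strand) encodes the receptor for Areg, Tgfa, Hbegf, Ereg and Btc. It was at 6.21, 7.11 and 6.11 RPKM in control libraries A, B and 2018 and at 11.8, 10.6 and 10.9 RPKM in the Nf2 KO-labelled libraries A, B and 2018. Every Nf2 KO-labelled library lay above every control library, and no mark stood apart. The means were 6.48 ± 0.552 and 11.1 ± 0.597 RPKM (SD, n = 3 each), a difference of 0.70 (SE 0.09, adjusted p = 0.0329 by limma with Benjamini-Hochberg adjustment). The call rests on 5 of the 6 libraries: the limma adjusted p was 0.162 without control A, 0.145 without control 2018, 0.143 without Nf2 KO A, 0.0559 without Nf2 KO B and 0.145 without Nf2 KO 2018, with differences between 0.66 and 0.73. Without control B it was 0.0287.

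Erbb2 (chr11:98412470-98437716, plus strand), the ligand-less partner receptor, was at 11.7, 11.4 and 12.2 RPKM in control libraries A, B and 2018 and at 12.9, 11.9 and 13.4 RPKM in the Nf2 KO-labelled libraries. The ranges overlapped. The difference of 0.10 (95% interval -0.10 to 0.31) had a limma adjusted p of 0.877. Erbb3 (chr10:128567523-128589652, minus strand), the receptor for neuregulins, was near the lower limit of the data at 0.321, 0.105 and 0.223 RPKM in the control libraries and 0.202, 0.129 and 0.193 RPKM in the Nf2 KO-labelled libraries, or 11.9 to 84.6 reads. Its lines overlapped (two-sided exact permutation p = 0.6, where 0.1 is the smallest possible). The sum over the 3 receptors was 18.5 ± 0.202 RPKM in the control and 24.0 ± 1.19 RPKM in the Nf2 KO-labelled libraries (SD, n = 3 each), and Egfr made most of that gap. Erbb4, the remaining receptor of the family, was listed at 0 in all libraries but control 2018, where it had 0.00132 RPKM.

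Among the ligands, Areg (chr5:91139599-91148432, plus strand; amphiregulin, a ligand of Egfr and a known target of the Merlin-regulated cofactor YAP) had the largest line difference. It was at 2.57, 4.04 and 3.05 RPKM in control libraries A, B and 2018 and at 0.41, 1.24 and 0.619 RPKM in the Nf2 KO-labelled libraries, with 9.0 to 226.0 reads behind each value. All control libraries lay above all Nf2 KO-labelled libraries, and B was highest in each line. The control mean was 4.26 times the other (3.22 ± 0.748 against 0.755 ± 0.43 RPKM, SD, n = 3 each). The difference of -1.28 (SE 0.21) had a limma adjusted p of 0.0553 unpaired and 0.00298 with the replicate block (SE 0.08). Without Nf2 KO B the unpaired difference was -1.47, with a limma adjusted p of 0.0345. Leaving out any other library gave no call (limma adjusted p = 0.0782 to 0.217, differences of -1.39 to -1.13).

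Tgfa (chr6:86195223-86275719, plus strand), which encodes transforming growth factor alpha, another ligand of Egfr, went the other way. It was at 0.687, 0.414 and 0.471 RPKM in control libraries A, B and 2018 and at 1.71, 1.31 and 1.19 RPKM in the Nf2 KO-labelled libraries. The lines did not overlap, and within marks A, B and 2018 the Nf2 KO-labelled library had 2.49, 3.16 and 2.53 times the control value. The difference of 0.66 (SE 0.14) had a limma adjusted p of 0.105 unpaired and 0.0149 with the block (SE 0.09).

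Ereg and Hbegf, which encode epiregulin and heparin-binding EGF-like growth factor and bind Egfr and Erbb4, varied more between marks than between lines. Ereg (chr5:91074622-91093646, plus strand) was at 4.44, 30.1 and 5.96 RPKM in control libraries A, B and 2018 and at 2.44, 19.3 and 2.83 RPKM in the Nf2 KO-labelled libraries. Hbegf (chr18:36504927-36515805, minus strand) was at 10.5, 51.3 and 13.7 RPKM in the control and 6.17, 34.6 and 8.68 RPKM in the Nf2 KO-labelled libraries. For both genes the lines overlapped, because both B libraries were high, yet each Nf2 KO-labelled library was below the control of its own mark. The ratio of Nf2 KO-labelled to control within marks A, B and 2018 was 0.548, 0.642 and 0.476 for Ereg. For Hbegf it was 0.589, 0.675 and 0.633. Unpaired, neither difference passed (Ereg -0.71, SE 0.89; Hbegf -0.61, SE 0.77; limma adjusted p = 0.945 for each). With the block the SE dropped to 0.07 and 0.06, and the limma adjusted p was 0.00786 for Ereg and 0.00752 for Hbegf. An antisense gene, Gm19610, shares 141 exon bases with Ereg on the opposite strand, and its own values of 0.135 to 1.27 RPKM are far under those of Ereg. Other members share exon bases with opposite-strand genes too: Nrg1 482 with Gm26578 (at or under 0.605 RPKM) and Tgfa 118 with Gm43917 (at or under 0.0469 RPKM). Erbb2 shares 9 with Mien1, which was at 18.2 to 35.1 RPKM. Whether counting used the strand is not given in the sources used here.

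Nrg1 (chr8:31814551-32884029, minus strand; neuregulin, a ligand of Erbb3 and Erbb4) was at 7.15, 9.71 and 8.84 RPKM in control libraries A, B and 2018 and at 7.47, 11.3 and 9.13 RPKM in the Nf2 KO-labelled libraries. The lines overlapped, and the difference of 0.10 (95% interval -0.30 to 0.50) had a limma adjusted p of 0.969. Btc (chr5:91357261-91402994, minus strand; betacellulin, a ligand of Egfr and Erbb4) was at 0.115, 0.0817 and 0.141 RPKM in the control libraries and 0.0367, 0.0229 and 0.0575 RPKM in the Nf2 KO-labelled libraries, or 2.0 to 38.8 reads. Its lines did not overlap, but the exact two-sided permutation p of 0.1 is the smallest that 3 against 3 libraries allow. Of the other ligands of the family, Egf was at 0.113 to 0.221 RPKM, Nrg2 at 0.0964 to 0.187 RPKM, Nrg4 at 0.104 to 0.294 RPKM and Epgn at 0 to 0.0875 RPKM.

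Errfi1 (chr4:150853919-150868892, plus strand) encodes an inhibitor that binds the Egfr kinase and is itself raised by Egfr signalling. It was the most abundant member by mean in both lines, but in no single Nf2 KO-labelled library. There Erbb2 led in A (12.9 RPKM) and 2018 (13.4 RPKM), and Hbegf in B (34.6 RPKM). Errfi1 was at 44.7, 61.2 and 30.9 RPKM in control libraries A, B and 2018 and at 10.3, 33.7 and 10.6 RPKM in the Nf2 KO-labelled libraries. Nf2 KO B lay above control 2018, so the lines overlapped by that library, and the control mean was 2.50 times the other (45.6 ± 15.2 against 18.2 ± 13.4 RPKM, SD, n = 3 each). The difference of -1.44 (SE 0.47) had a limma adjusted p of 0.329 unpaired and 0.0224 with the block (SE 0.21). Without Nf2 KO B the unpaired difference was -1.97, with a limma adjusted p of 0.0436. With any other library left out it did not pass (limma adjusted p = 0.432 to 0.713, differences of -1.69 to -1.16).

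**Figure D2:**
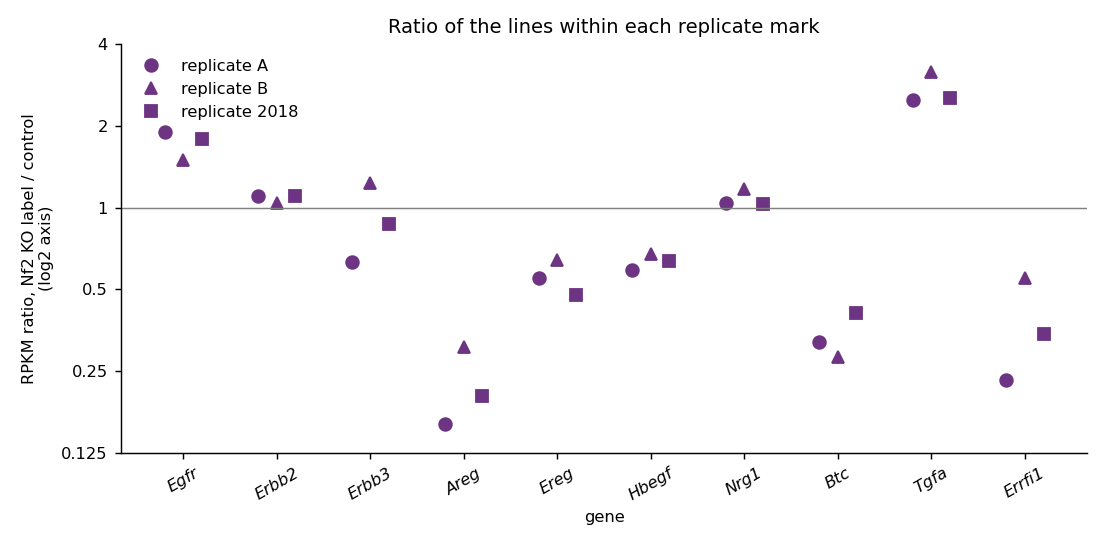
Ratio of the Nf2 KO-labelled to the control RPKM value (log2 axis) within each replicate mark (circle A, triangle B, square 2018) for the 10 members, with a line at equal values. All 3 ratios were above 1 for Egfr, Erbb2, Nrg1 and Tgfa and below 1 for Areg, Ereg, Hbegf, Btc and Errfi1, and those of Erbb3 lay on both sides.

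Areg, Ereg and Btc are neighbours. With Epgn and the non-coding genes Gm19610 and Gm19619 they lie within 375.5 kb of chromosome 5. All 3 of these members were lower in the Nf2 KO-labelled library of every mark, whereas Ereg was highest in B in both lines and Btc had its lowest value of each line in B. Epgn and Gm19619 were near or at 0 throughout.

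The second comparison sets the B libraries against those marked A and 2018, with the line in the fit. It was proposed because earlier results of these data had shown the B libraries to stand apart, and the labels do not say how B differed. Ereg was 6.31 times and Hbegf 4.40 times as high in B as in the other libraries, and Errfi1 and Areg rose as well. These 4 of 8 members passed the threshold, all of them higher in B. Of all genes tested, 30.6% passed, 10.8% higher and 19.8% lower.

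Ereg had a difference of 2.41 (SE 0.11, adjusted p = 0.000395) and Hbegf of 2.05 (SE 0.15, adjusted p = 0.000775) in limma with Benjamini-Hochberg adjustment. For both, the lower B library was above the highest of the other 4. Both kept the call under every alternative run, with 1 library of B left out included. Errfi1 differed by 1.15 (SE 0.23, limma adjusted p = 0.013). Without Nf2 KO B its difference was 0.70 and the limma adjusted p was 0.0977. Areg differed by 0.49 (SE 0.11, limma adjusted p = 0.017), and the limma adjusted p was 0.0922 without control B and 0.184 without Nf2 KO B.

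Nrg1 was also highest in B within each line, and both B libraries were above the other 4. Its difference was 0.33 (SE 0.11, limma adjusted p = 0.0586), and the limma adjusted p was 0.04 without control 2018 and 0.0482 without Nf2 KO 2018. Without any other library it did not pass (0.101 to 0.364 by limma, with differences of 0.26 to 0.41). Both B libraries lay above the other 4 for 3 of the 8 members (Ereg, Hbegf and Nrg1), against 16.8% of all genes tested. The remaining tested members did not pass: Egfr differed by 0.05 (95% interval -0.16 to 0.25), Erbb2 by -0.10 (95% interval -0.26 to 0.07) and Tgfa by -0.12 (95% interval -0.41 to 0.18). Erbb3 was lower in both B libraries than in any other (two-sided exact permutation p = 0.1333, where 0.0667 is the smallest possible), and Btc overlapped (exact permutation p = 0.5333).

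Whether the line difference itself changed in B was tested with an interaction term in limma. No member and none of the 11067 genes passed after Benjamini-Hochberg adjustment (0% called), with 313 genes at an unadjusted p under 0.05. Errfi1 was the only member among these, with a line difference smaller in size by 0.89 in B (SE 0.30, limma adjusted p = 1.0). In each line this test rests on 1 library of mark B.

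Changes in B depend in part on how libraries are scaled. Of the genes called in B, 35.3% were higher and 64.7% lower as deposited, 52.4% and 47.6% after quantile normalization, and 52.5% and 47.5% after median centring. The median over all genes was -0.08 in B and -0.01 between the lines. Ereg, Hbegf, Errfi1 and Areg stayed higher in B past the threshold under both scalings, and Nrg1 passed it after median centring (difference 0.41, limma adjusted p = 0.0421). Tgfa was lower in B as deposited and 0.06 higher after quantile normalization, past the threshold in neither.

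**Figure D3:**
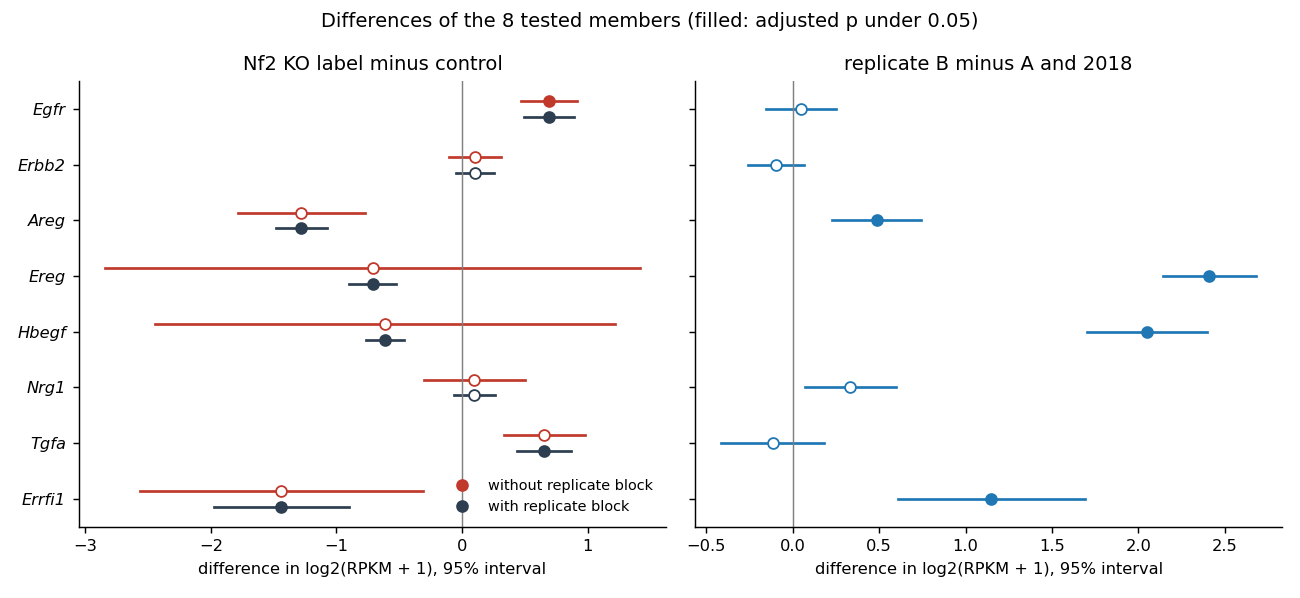
Differences in log2(RPKM + 1) with 95% intervals for the 8 tested members, between lines (left, red without and dark blue with the replicate block) and between B and the other marks (right), with filled points where the limma adjusted p was under 0.05. The block narrowed the line intervals of Ereg and Hbegf most, and these genes had the largest differences in B.

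Marker sums moved with B too, those of the endothelial and skeletal muscle lists through 1 gene each. The fibroblast marker sum was 1130 to 1380 RPKM in B and 1350 to 2060 RPKM in A and 2018, and 5 of its 8 tested genes were called lower in B. Thy1 was instead highest in B within each line. It was at 7.04 RPKM in control B against 4.19 and 6.52 RPKM in control A and 2018, and at 3.64 RPKM in Nf2 KO B against 1.85 and 2.31 RPKM in Nf2 KO A and 2018. The endothelial list summed to 3.89 to 4.45 RPKM in B and 1.46 to 1.84 RPKM elsewhere, nearly all of it Kdr, the only gene of the list that was tested, while Cdh5 was at or under 0.1 RPKM. Pecam1 was lower in B, at 0.00847 and 0 RPKM against 0.0119 to 0.0286 RPKM. Skeletal muscle markers summed to 3.3 to 6.73 RPKM in B and 1.03 to 1.58 RPKM elsewhere, with Acta1 as the main gene and Myog at or under 0.259 RPKM. None of that list was tested, and Mylpf was lower in B, at 0.0993 and 0.195 RPKM against 0.208 to 0.699 RPKM. The macrophage list (5.91 to 8.59 RPKM, mostly Cd68, with Ptprc at or under 0.00896 RPKM) and the Schwann and neural list (1.48 to 2.99 RPKM, with Sox10 at or under 0.0173 RPKM) overlapped between B and the other marks. The epithelial sum was low throughout and lower in B, at 0.328 to 0.369 RPKM against 0.496 to 1.43 RPKM in A and 2018, and none of its genes was tested. Between the lines, the fibroblast sum was 1380 to 2060 RPKM in the control and 1130 to 1580 RPKM in the Nf2 KO-labelled libraries, with 2 of 8 genes called lower. Some genes of small weight in that sum split the lines more. Pdgfra was at 5.22 to 12.3 RPKM in the control and 0.657 to 1.42 RPKM in the Nf2 KO-labelled libraries. Dcn was at 1.6 to 4.01 and 0.0266 to 0.133 RPKM, whereas Pdgfrb overlapped between the lines. The part of these shifts in the results on the members was not tested, and in bulk RNA fewer cells of a type and less RNA per cell cannot be told apart.

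The mix of ligand RNA differed between libraries. The 6 ligands summed to 25.5, 95.6 and 32.2 RPKM in control libraries A, B and 2018 and to 18.2, 67.8 and 22.5 RPKM in the Nf2 KO-labelled libraries, so the B library had the highest sum of each line and the Nf2 KO-labelled library the lower sum of each mark. Hbegf gave 33.8% to 53.6% of these sums and was the leading ligand in all libraries except Nf2 KO A and Nf2 KO 2018, where Nrg1 led with 41.0% and 40.6%. Areg gave 4.22% to 10.1% in the control and 1.83% to 2.75% in the Nf2 KO-labelled libraries. Tgfa gave 0.433% to 2.7% in the control and 1.93% to 9.39% in the Nf2 KO-labelled libraries, and in each Nf2 KO-labelled library it exceeded Areg. In Nf2 KO B this was a near tie, at 1.93% against 1.83%, with 28.9 reads behind the Areg value. In the control libraries Areg exceeded Tgfa each time.

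By mean level, the control order was Errfi1, Hbegf, Ereg, Erbb2, Nrg1, Egfr, Areg, Tgfa, Erbb3 and Btc. The ranges of neighbours overlapped from Errfi1 down to Erbb2 and between Erbb3 and Btc, and the steps from Erbb2 to Erbb3 did not overlap. In the Nf2 KO-labelled libraries the order was Errfi1, Hbegf, Erbb2, Egfr, Nrg1, Ereg, Tgfa, Areg, Erbb3 and Btc. There, Egfr overlapped with Nrg1, Nrg1 with Ereg, Tgfa with Areg, Errfi1 with Hbegf, and Hbegf with Erbb2, while the lowest Erbb2 value (11.9 RPKM) lay just above the highest Egfr value (11.8 RPKM). Egfr had moved above Nrg1 in the mean, and Tgfa above Areg. Both orders pool marks with unlike levels. In Nf2 KO A and 2018, Erbb2 (12.9 and 13.4 RPKM) and Egfr (11.8 and 10.9 RPKM) lay above Errfi1 (10.3 and 10.6 RPKM) and Hbegf (6.17 and 8.68 RPKM). In control A and 2018, Ereg (4.44 and 5.96 RPKM) lay below Erbb2, Nrg1 and Egfr.

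Other genes of the pathway were counted over a list of 65, of which 64 were in the table and 59 were tested: 10 of ligand shedding, 12 inhibitors of the receptors, 25 of signalling and 12 response genes. Between the lines, 24 were higher and 35 lower, with a median of -0.06 (-0.01 over all genes tested). Only Adam8, a protease gene of the shedding group, passed without the block, or 1.69% of the 59 against 1.06% of all genes tested. It was at 2.55, 1.88 and 2.42 RPKM in control libraries A, B and 2018 and at 0.894, 0.715 and 0.596 RPKM in the Nf2 KO-labelled libraries, with no overlap (difference -0.92, SE 0.13, limma adjusted p = 0.039). It passed the filter on low values only through the control line, where it is high, and was not tested under the filter of 5 RPKM. The call was lost with no filter, with the 2018 mark as a covariate and when any single library other than control B was left out.

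With the replicate block, 12 of the 59 passed, or 20.3%, 2 of them higher and 10 lower in the Nf2 KO-labelled libraries, against 7.53% of all genes tested (2.99% higher and 4.54% lower). Of the 10 lower genes, Adam8, Adam12 and Spry4 reached the filter through the control line, where they are high, so their place among those tested depended on that line. In the shedding group Adam8, Adam12 (-0.73) and Adam19 (-0.76) were lower in log2(RPKM + 1). The inhibitors Lrig1 (-0.76), which promotes receptor degradation, Sh3kbp1 (-1.02), an adaptor of receptor endocytosis, and Socs5 (-0.49) were lower too. Among response genes, Fosl1 (-1.04), a transcription factor of the AP-1 family, Spry2 (-0.64) and Spry4 (-0.66), feedback inhibitors of RAS-MAPK signalling, and Phlda1 (-0.55) were lower. The pair that was higher comes from the signalling group: Gab1 (0.38), a docking protein, and Pik3cb (0.52), a catalytic subunit of PI3K. The limma adjusted p of these 12 with the block was 0.00849 for Adam8, 0.0414 for Fosl1, and between these values for the others.

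In B, 28 of the 59 passed, or 47.5%, 18 higher and 10 lower, against 30.6% of all genes tested (10.8% higher and 19.8% lower), with a median of 0.05 (-0.08 over all genes tested). Of the 12 response genes, 11 were called higher in B, the exception being the cyclin gene Ccnd1, and their median difference was 1.41. Egr1, an immediate early transcription factor, was at 9.24, 79.3 and 13.9 RPKM in control libraries A, B and 2018 and at 6.85, 44.9 and 4.78 RPKM in the Nf2 KO-labelled libraries (difference 2.73, SE 0.18, limma adjusted p = 0.000736). Ptgs2, which encodes the cyclooxygenase of prostaglandin synthesis, was at 20.3, 144.0 and 21.4 RPKM in the control and 10.2, 94.8 and 19.7 RPKM in the Nf2 KO-labelled libraries (difference 2.69). Phlda1 differed by 1.74. For all 3, both B libraries were above the other 4, as for Ereg and Hbegf.

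The other groups split in B. Of the shedding genes 2 were called higher and 2 lower, of the inhibitors 3 higher and 2 lower, and of the signalling genes 2 higher and 6 lower. Set against the 30.6% of all genes called in B, the 4 of 10 shedding genes and 5 of 12 inhibitors were somewhat above that share, and the signalling genes, at 32.0%, were near it. The signalling genes with the largest falls in B were Pik3r2 (-0.80) and Pik3r1 (-0.74), regulatory subunits of PI3K, and Mapk3 (-0.77), a MAP kinase. The count of 28 fell to 15 without control B and to 13 without Nf2 KO B.

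**Figure D4:**
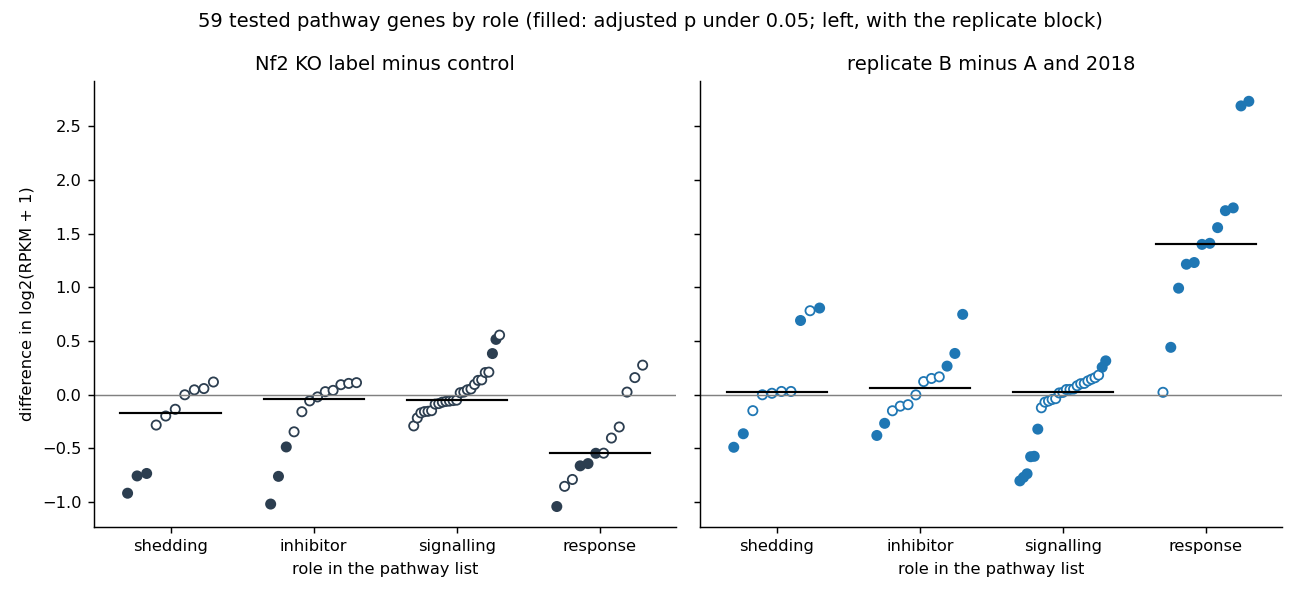
Differences in log2(RPKM + 1) of the 59 tested pathway genes by role, between lines (left) and between B and the other marks (right), with a bar at each median and filled points where the limma adjusted p was under 0.05 (left, with the replicate block). The response genes lie below 0 in the median between lines (-0.55) and well above it in B (1.41). Between lines the median was -0.17 for shedding, -0.04 for inhibitors and -0.05 for signalling genes, and in B these roles have medians near 0.

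Genes with the most similar profile over the 6 libraries were sought for the members that passed the filter and spanned at least 1 in log2(RPKM + 1). The search covered the 7018 tested genes outside the members whose mean reached 5 RPKM, so members were not compared with each other. The measure was the root-mean-square difference of mean-centred log2(RPKM + 1), and all values come from the same 6 libraries. Ereg was closest to Egr1 (0.248), Ptgs2 (0.279) and Phlda1 (0.355), all 3 of them response genes of the list. Hbegf was closest to Metrnl (0.19), Phlda1 (0.206) and Plaur (0.208), the gene of the urokinase receptor. Errfi1 was closest to Hmga1 (0.185), Hmga1b (0.24) and Etv4 (0.291), an ETS transcription factor. Hmga1 and Hmga1b are near-identical copies that may share reads, so their separate values are uncertain. Areg was closest to Cspg4 (0.176), a surface proteoglycan gene, S100a1 (0.209) and Arhgap22 (0.224), which like Areg split the lines in all libraries.

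**Figure D5:**
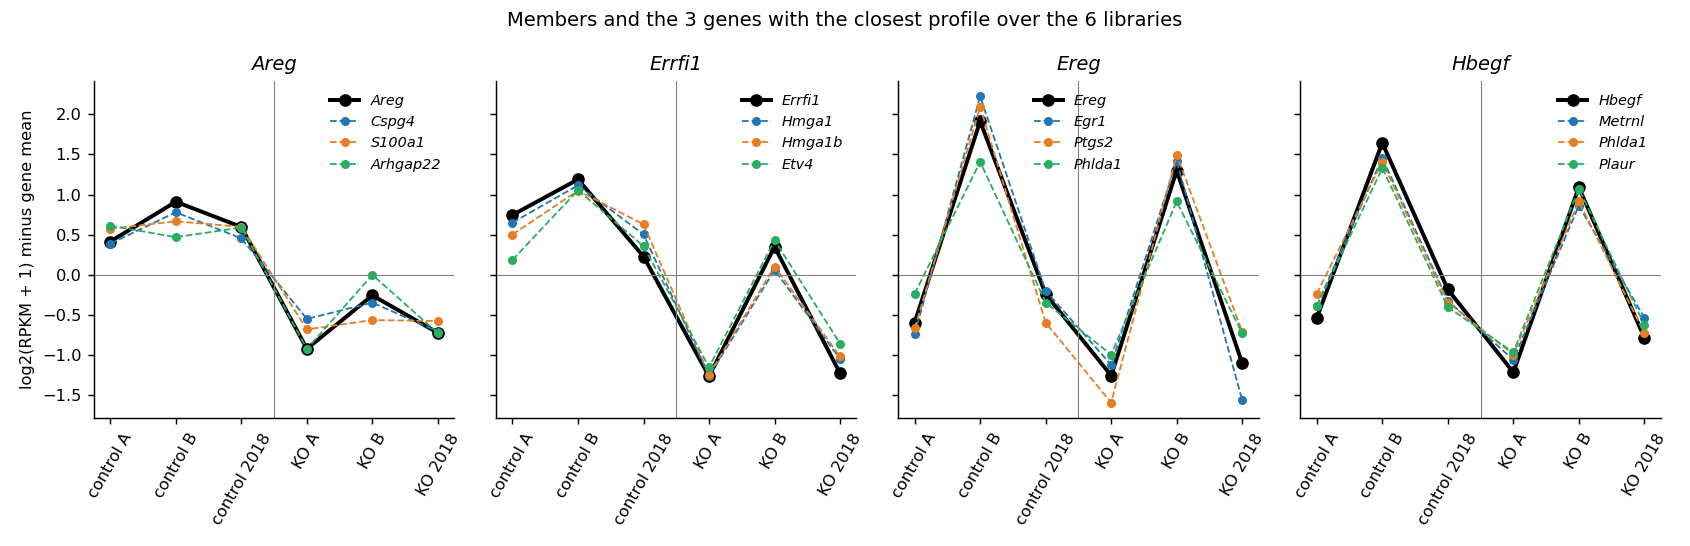
Profiles of Areg, Errfi1, Ereg and Hbegf (black) and of the 3 genes outside the members closest to each (coloured, dashed) over the 6 libraries, as log2(RPKM + 1) minus the gene's mean. Areg and its neighbours drop from control to Nf2 KO-labelled libraries, Ereg and Hbegf peak in both B libraries, and Errfi1 does both.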

How the data were processed

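RNA sequencing values of 6 libraries of immortalized MEFs, 3 per line, were analysed. The authors deposited 1 table of 26231 genes, whose values are taken as RPKM: among values worth 20 reads or fewer, 86.4% to 87.9% per library came to whole reads within 0.1 after multiplying by exon length (20.0% by chance), for 25986 genes with an exon length in GENCODE vM21. Libraries and analysis were made by GENEWIZ. The build in the submitters' processing notes is mm10, and the aligner and counter are not given in the sources used here. Groups came from the sample labels, and the number of columns left unused was 0.

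Values were set to log2(RPKM + 1), genes that reached 1 RPKM in 3 or more libraries (11067) were tested, and limma 3.58.1 in R 4.3.3 (trend and robust settings, two-sided) was run with p-values adjusted by Benjamini-Hochberg and calls made under 0.05. Members under the filter were tested by an exact permutation test over libraries. Deviations of libraries with the same mark from their line means correlated at 0.552 for A, 0.819 for B and 0.516 for 2018. Marks were therefore treated as pairs, and a second fit took the mark as a replicate block, given beside results whose call it alters. Each line mean includes its B library, so a shift shared by the B libraries also raises the values for A and 2018. Libraries of unlike marks were not correlated, so pairing of A and of 2018 beyond that shift was not tested. The scripts were tested on simulated data.

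Named genes are the 10 members, Nf2, the other receptors and ligands, pathway genes past the threshold between lines, and the 3 largest changes of the list in each direction in B. Named too are the 3 closest profiles outside the members for each member searched. Marker genes are named from fixed lists, and Ccnd1 as the exception to a count. The members, lists and comparisons were chosen with earlier results of these data known. Alternatives were another pseudocount, filter, scaling and variance setting, the replicate block, a covariate for the 2018 mark and each replicate or library left out. A voom fit of the recovered reads and a filter of a mean of 0.5 RPKM were chosen after seeing the data. Figures were drawn with matplotlib 3.10.9.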

Additional observations from a re-analysis of the deposited data

How the results depend on the processing

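Between the lines, the count of 1 member called became 0 with no filter and with the 2018 mark as a covariate, 2 without trend and robust settings (Egfr and Areg), 3 with voom on recovered reads (Egfr, Areg and Tgfa) and 6 with the replicate block. It ranged from 0 to 4 with a replicate or library left out and was 4 without replicate 2, the B libraries (Egfr, Areg, Ereg and Errfi1). Over all genes, the count of 117 became 9 with no filter, 833 with the replicate block and 62 with the 2018 covariate. It was 484 without replicate 2 and 0 without replicate 1 or 3, and each of these settings leaves 2 libraries per line. The limma adjusted p of Egfr ranged from 0.00726 to 0.575 over the alternatives, with 0.134 under no filter and 0.0645 with the 2018 covariate, and its difference kept its sign. The pathway count of 1 became 0 with no filter, with a filter of 5 RPKM and with the 2018 covariate, 2 with voom and 12 with the replicate block, and ranged from 0 to 9 with libraries left out. In B, the members' count of 4 was 2 with no filter, where the limma adjusted p was 0.0794 for Areg and 0.0779 for Errfi1, and ranged from 2 to 5 with libraries left out. With voom Areg lost the call in B (limma adjusted p = 0.0766) and Nrg1 gained it (limma adjusted p = 0.0483). The pathway count of 28 in B was 13 with no filter and ranged from 13 to 27 with libraries left out. Some signs turned, all for differences not called in the fit without the block, although Ereg and Hbegf are called between lines with the replicate block. With libraries left out, the line difference ranged from -0.0373 to 0.2324 for Nrg1 (below 0 without control A or Nf2 KO B), from -1.5406 to 0.0665 for Ereg and from -1.3112 to 0.0566 for Hbegf (both above 0 without control B), and the B difference from -0.0883 (without control B) to 0.1801 for Egfr. Tgfa in B was 0.0575 after quantile normalization. The causes were not tested. Depth limits Erbb3, Btc and, in marks A and B, Areg.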
